A study of Mus musculus with 6 samples.

Results

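The 2-5A system is one of the antiviral arms of the interferon response. Oligoadenylate synthetases bind double-stranded RNA and join ATP into short 2′,5′-linked oligoadenylates, called 2-5A, which act as second messengers of the antiviral response. Their genes are textbook targets of interferon through the transcription factor complex ISGF3, and several Oas-like relatives have lost the enzymatic activity but still act in the antiviral response. The genes described here are the 8 mouse symbols Oas1a, Oas1b, Oas1c, Oas1g, Oas2, Oas3, Oasl1 and Oasl2, taken by name from a table of 36870 symbols, together with the genes around this pathway. Of the 8, 7 had a row, and all 7 passed the expression minimum of a mean of 0.1 RPKM, as did 13266 genes in total. RPKM expresses the reads of a gene relative to its transcript length and to all mapped reads, so levels can be set side by side between genes. Oas1b had no row under that symbol and was not analysed here. In GENCODE M21 it is a polymorphic pseudogene on chromosome 5 (120812635 to 120824163, plus strand), and in textbooks it is the flavivirus resistance gene that most laboratory strains carry in a truncated form.

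RNA-seq was performed on BMMSCs, adherent cells cultured from the femurs and tibias of C57BL/6 mice, at passage 2 according to the sample labels. The study compared 3 control libraries, from cells given a non-targeting siRNA according to the labels, with 3 libraries from cells given siRNAs against Tet1 and Tet2, dioxygenases that oxidize 5-methylcytosine in DNA. The siRNA methods also name a non-targeting siRNA, whereas the RNA-seq methods call the controls vehicle-treated and the cells passage one. Nothing in the labels says whether the 3 libraries of a group came from separate animals or cultures, so p-values measure the spread between these libraries, which may be technical. The treatment is a transient knockdown, not a knockout. As for the targets, the control libraries held 2.57, 4.08 and 3.71 RPKM of Tet2, and the siRNA libraries held 0.358, 0.238 and 0.202 RPKM. Tet1 was at 0.032, 0.098 and 0.05 RPKM in the control and at 0.001, 0.01 and 0.001 RPKM in the siRNA libraries, too low to be tested. The replicates of a group correlated across genes with r between 0.992 and 0.997.

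The Oas genes lie in 2 groups on chromosome 5 of GRCm38. Oasl2 (114896936 to 114912234) and Oasl1 (114923240 to 114937915) are neighbours on the plus strand. Oas2 (120730333 to 120749853), Oas3 (120753098 to 120777661), Oas1c (120800194 to 120812514), Oas1g (120876142 to 120887613) and Oas1a (120896256 to 120907521) follow each other on the minus strand. RefSeq promoter windows on GRCm38.p6, from 250 bases before to 50 bases after a gene's start, were found for 6 of the 8 genes and were missing for Oas1b and Oas2. They were searched on both strands for GAAANNGAAA, the core of the interferon-stimulated response element that ISGF3 binds. Of 32851 promoter windows in the table, 1131 held the motif (3.44%) and 74 held it at least 2 times (0.225%). It was in 4 of the 6 Oas windows, those of Oas1a, Oas1g, Oas1c and Oas3, and the letters were not found in the windows of Oasl1 and Oasl2. The stretches around the matches are shown because they differ between these genes in number, place and strand. They are written 5′ to 3′ on the strand of the gene, which is the minus strand in each case, with the motif matches in capitals and the start site counted as position 0.
Oas1a, chr5:120907526-120907575: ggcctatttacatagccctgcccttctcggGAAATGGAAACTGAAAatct
Oas1g, chr5:120887614-120887663: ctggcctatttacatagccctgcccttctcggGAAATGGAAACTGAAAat
Oas1c, chr5:120812585-120812634: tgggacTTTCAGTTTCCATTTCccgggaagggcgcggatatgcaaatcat
Oas3, chr5:120777705-120777754: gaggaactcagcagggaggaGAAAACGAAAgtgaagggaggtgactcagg

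Oas1a held 2 matches that overlap by 4 bases, at -20 to -11 and -14 to -5, and Oas1g held 2 at -18 to -9 and -12 to -3. The windows of these genes shared an unbroken run of 73 bases around their starts. Oas1c held the same overlapping pair of matches on the opposite strand, at -114 to -105 and -108 to -99, within a run of 19 bases, CGGGAAATGGAAACTGAAA, that it shared with Oas1a in inverted orientation. The annotated starts of Oas1c and Oas1b face away from each other with 120 bases between them, and these matches lie 7 to 22 bases upstream of the start of Oas1b and point in its direction. Oas3 held 1 match at -75 to -66. CpG dinucleotides, the substrate of the Tet enzymes when methylated, were few in the windows of Oas1a (3), Oas1g (4), Oas3 (3) and Oasl2 (3), and reached 9 in Oas1c and 8 in Oasl1, with a median of 7 and quartiles of 3 and 20 over all windows. A match is a description of the letters, and neither binding nor methylation was measured in these libraries.

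The Oas genes were chosen by their RPKM values in this same comparison, in which they fell, so their values describe the libraries and are given without a p-value. The 7 genes summed to 385, 379.7 and 354 RPKM in the control and to 45.2, 53.1 and 43.9 RPKM in the siRNA libraries. The siRNA mean was thus 12.7% of the control mean (47.4 ± 4.99 against 373 ± 16.5 RPKM, SD, n = 3). In each of the 7, every siRNA library was below every control library, as in 35.9% of the genes tested. With limma on log2(RPKM + 1) and Benjamini-Hochberg adjustment, 7 of 7 were called lower at an adjusted p under 0.05, where 29.8% of the genes tested were, and 6 of 7 were also altered by more than 2-fold on that scale with an unadjusted p under 0.05, where 5.63% were. The median log2 fold change was -2.61 over the 7 genes and -0.09 over all genes tested. In bulk libraries, fewer cells of an expressing type and less RNA per cell cannot be told apart.

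**Figure D1:**
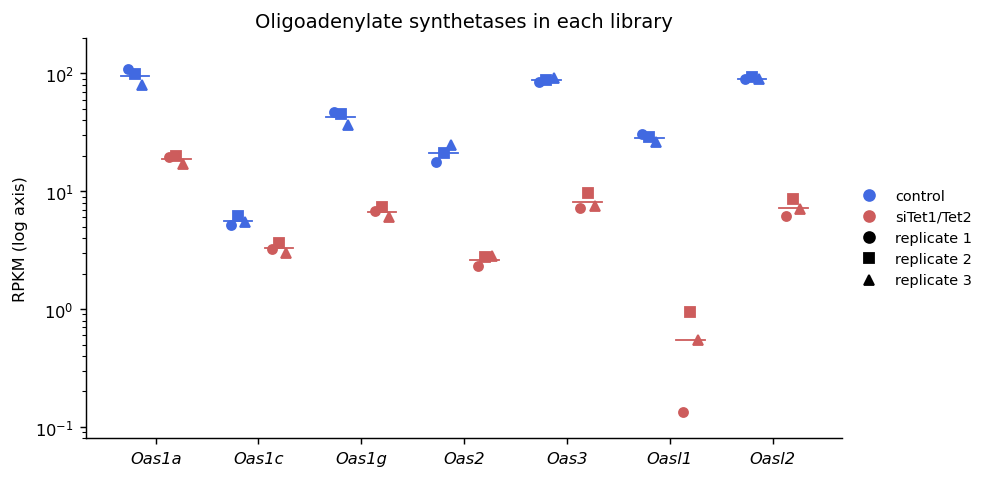
RPKM on a log axis of the 7 Oas genes in the 3 control (blue) and 3 Tet1/Tet2 siRNA (red) libraries, with symbols for the replicate number and a bar at each group mean. Every red point of an Oas gene lies below every blue one, with Oasl1 lowest at 0.134 to 0.953 RPKM.

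The Oas1 subfamily encodes synthetases with a single catalytic unit. Oas1a, which encodes an active enzyme, had the highest mean of the family in both groups. It was at 109, 98.2 and 79.7 RPKM in the control and at 19.4, 20.0 and 17.0 RPKM in the siRNA libraries. The lowest control value was 3.98 times the highest siRNA value. The log2 fold change was -2.28 (SE 0.12). Oas1g, also an active copy, was at 47.3, 44.9 and 36.6 RPKM in the control and at 6.76, 7.38 and 6.01 RPKM in the siRNA libraries, with a log2 fold change of -2.51 (SE 0.11). The order of the control libraries was the same in both genes, with replicate 1 highest and replicate 3 lowest. In the annotated transcripts, 40.9% of the 100-base stretches of Oas1a occurred in Oas1g and 31.2% of those of Oas1g in Oas1a, while no stretch of the other Oas genes, Oas1b included, was shared within the family. How the authors' software assigned reads that match both is not given, so the split between Oas1a and Oas1g is uncertain. The ratio of Oas1a to Oas1g was 2.23 ± 0.0749 (SD, n = 3) in the control and 2.80 ± 0.0809 in the siRNA libraries.

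Oas1c, a further Oas1 copy, stood apart. It was at 5.15, 6.15 and 5.47 RPKM in the control and at 3.24, 3.67 and 2.98 RPKM in the siRNA libraries, which left 58.9% of the control mean, with a log2 fold change of -0.62 (SE 0.10). The groups did not overlap, with a lowest control value 1.40 times the highest siRNA value, but the change did not reach 2-fold. The ratio of Oas1a to Oas1c was 21.3, 16.0 and 14.6 in the control and 5.99, 5.46 and 5.69 in the siRNA libraries. By the depth estimate below, Oas1c rested on about 406 to 464 reads in the control and 243 to 323 in the siRNA libraries. Its level is therefore not at the detection limit in either group. A pseudocount of 1 shrinks the change of such low genes, and with 0.01 it was -0.76.

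The remaining Oas1 paralogs were near zero. Oas1h was at 0.196, 0.154 and 0.195 RPKM in the control, or about 13, 9 and 11 reads, and at 0.049, 0.001 and 0.056 RPKM, or about 3, 0 and 3 reads, after Tet1/Tet2 knockdown. The log2 fold change of Oas1h was -0.19 (SE 0.06, adjusted p = 0.0261 from limma), which a pseudocount of 0.1 turned into -1.08 and 0.01 into -2.45. That call was lost with quantile normalization (adjusted p = 0.0968), without control replicate 1 (adjusted p = 0.0640), without siRNA replicate 1 (0.0615) and without siRNA replicate 2 (0.0973). Oas1d, Oas1e and Oas1f were at 0.065 RPKM or less in each library and were not tested.

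Oas2 and Oas3 encode synthetases built of repeated units, of which Oas3 has the longest array and binds long double-stranded RNA. Oas2 was at 17.8, 21.1 and 24.8 RPKM in the control and at 2.31, 2.76 and 2.82 RPKM in the siRNA libraries. Its siRNA mean was 12.4% of the control mean, and the log2 fold change was -2.61 (SE 0.12). Oas3 was at 85.1, 87.5 and 92.2 RPKM in the control and at 7.20, 9.76 and 7.49 RPKM in the siRNA libraries. That left 9.23% of the control mean, with a log2 fold change of -3.30 (SE 0.10), the largest decrease among the 5 genes of the Oas1, Oas2 and Oas3 subfamilies. In the control, both genes were lowest in replicate 1 and highest in replicate 3, the reverse of Oas1a, Oas1g and Oasl1. The ratio of Oas2 to Oas1a was accordingly 0.163, 0.215 and 0.311 in the control libraries and 0.119, 0.138 and 0.166 in the siRNA libraries. Replicate numbers carry no order, so these values show the spread within a group and no trend.

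The Oas-like genes fell furthest. Oasl1, whose protein lacks synthetase activity and is known as a brake on the translation of Irf7, was at 30.4, 29.0 and 25.9 RPKM in the control. After knockdown it was at 0.134, 0.953 and 0.542 RPKM, or about 11, 80 and 42 reads, and so above the detection limit but with a coefficient of variation of 75.4%. The lowest control value was 27.2 times the highest siRNA value. The log2 fold change was -4.29 (SE 0.18), which a pseudocount of 0.01 turned into -6.06, so its size depends on how low values are handled, while its sign did not change. Oasl2, an Oas-like protein that keeps the enzymatic activity, was at 89.4, 92.9 and 89.1 RPKM in the control and at 6.15, 8.57 and 7.07 RPKM in the siRNA libraries. It had the smallest spread of the family in the control (coefficient of variation 2.29%), and its log2 fold change was -3.48 (SE 0.10). In both genes siRNA replicate 1 was lowest and siRNA replicate 2 highest. The ratio of Oasl2 to Oasl1 was 2.94, 3.20 and 3.44 in the control and 45.9, 8.99 and 13.0 in the siRNA libraries, so this ratio rests on the few Oasl1 reads of each siRNA library.

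Among the 13266 genes tested, ordered by log2 fold change from the most negative, Oasl1 was at place 9, Oasl2 at 23, Oas3 at 29, Oas2 at 62, Oas1g at 78, Oas1a at 112 and Oas1c at 1436. In the control, Oas1a, Oasl2 and Oas3 had means of 95.8 ± 15.0, 90.5 ± 2.07 and 88.3 ± 3.59 RPKM (SD, n = 3), which overlapped, and were among the 6.14% of tested genes with the highest level. Below them came Oas1g (42.9 ± 5.62), Oasl1 (28.5 ± 2.28), Oas2 (21.2 ± 3.51) and Oas1c (5.59 ± 0.512), which did not overlap with each other. In the siRNA libraries the order was Oas1a (18.8 ± 1.60), Oas3 (8.15 ± 1.40), Oasl2 (7.26 ± 1.22), Oas1g (6.71 ± 0.687), Oas1c (3.29 ± 0.346), Oas2 (2.63 ± 0.281) and Oasl1 (0.543 ± 0.410). Here Oas3, Oasl2 and Oas1g overlapped and the others did not. Oasl1 had moved below Oas2 and Oas1c, and Oas1c above Oas2.

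Because the genes fell by unequal factors, the composition of the family differed between the groups. Oas1a made up 25.6% ± 2.97 (SD, n = 3) of the summed RPKM in the control and 39.8% ± 2.78 in the siRNA libraries, and Oas1c 1.50% ± 0.146 and 6.95% ± 0.189. Oas3 went from 23.7% ± 2.05 to 17.1% ± 1.22, Oasl2 from 24.3% ± 0.978 to 15.3% ± 1.45 and Oasl1 from 7.63% ± 0.287 to 1.11% ± 0.757. The share of Oas2 was 5.73% ± 1.20 and 5.58% ± 0.739, so this gene's shares overlapped. The shares of the other 6 genes did not overlap between the groups. These shares come from the values that chose the genes, so they too are a description.

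**Figure D2:**
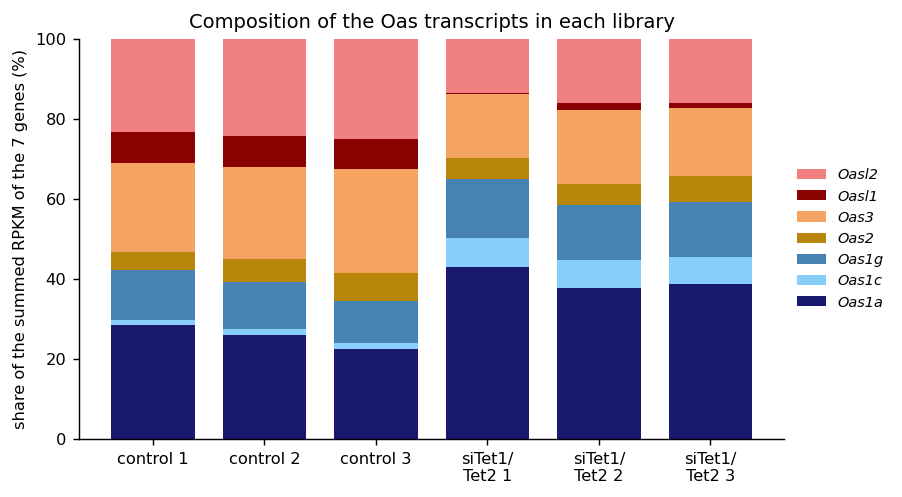
Share of the summed RPKM (%) taken by each of the 7 Oas genes in each library, stacked to 100. Oas1a and Oas1c take larger shares in the 3 siRNA libraries than in the 3 control libraries, and Oas3, Oasl2 and Oasl1 smaller ones.

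Of 3 genes that act on 2-5A or its signal, 2 were called lower, where 29.8% of all genes tested were. Abce1, a ribosome recycling factor also known in the 2-5A pathway, fell from 46.3 ± 3.43 to 29.1 ± 2.84 RPKM (SD, n = 3), a log2 fold change of -0.65 (SE 0.09, adjusted p = 4.98e-04 from limma). Pde12, a phosphodiesterase that degrades 2-5A, went from 11.9 ± 0.329 to 9.40 ± 0.317 RPKM, a log2 fold change of -0.31 (SE 0.07, adjusted p = 0.00789 from limma). The call of Pde12 was lost with median-ratio scaling (adjusted p = 0.0561) and with quantile normalization (0.114). Akap7, whose central domain also cuts 2-5A, was at 3.28 ± 0.859 and 3.99 ± 0.311 RPKM and did not pass the test (log2 fold change 0.24, SE 0.14, adjusted p = 0.214 from limma). Without control replicate 1, which had the highest control value of 4.19 RPKM, its adjusted p was 0.0381. Past 2-fold were 0 of the 3 genes of this group, where 5.63% of all genes tested were altered and lower.

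Among the other sensors and effectors of double-stranded RNA, 7 of 8 were called lower, where 29.8% of all genes were, and 6 were also altered by more than 2-fold on the log2(RPKM + 1) scale, where 5.63% were. Zbp1, a sensor of Z-form nucleic acid, fell from 52.0 ± 5.80 to 2.99 ± 0.492 RPKM (SD, n = 3), a log2 fold change of -3.73 (SE 0.11, adjusted p = 5.65e-07 from limma). Ddx58, which encodes the cytosolic sensor RIG-I, fell from 40.2 ± 1.29 to 6.50 ± 0.0712 RPKM, by 2.46 on the log2 scale (adjusted p = 3.63e-07). Its relative Dhx58 fell from 49.5 ± 3.11 to 8.83 ± 0.987 RPKM (log2 fold change -2.36, adjusted p = 1.07e-06). Ifih1, which encodes the sensor of long double-stranded RNA known as MDA5, fell from 17.0 ± 1.85 to 4.72 ± 0.0812 RPKM (-1.65, adjusted p = 7.46e-06). Eif2ak2, the kinase PKR that stops translation on binding double-stranded RNA, fell from 41.9 ± 5.38 to 12.1 ± 0.899 RPKM (-1.71, adjusted p = 9.20e-06). Adar, the editing enzyme that marks double-stranded RNA as self, fell from 27.5 ± 2.17 to 12.7 ± 0.425 RPKM (-1.06, adjusted p = 2.20e-05). Tlr3, the endosomal receptor, was called lower (-0.90), with an RPKM ratio of control to siRNA of 2.08. Mavs, the adaptor below the cytosolic sensors and not a textbook interferon target, was at 15.9 ± 0.722 and 17.5 ± 0.589 RPKM and did not pass the test (log2 fold change 0.13, adjusted p = 0.141 from limma), but was higher with median-ratio scaling (adjusted p = 0.0192) and quantile normalization (0.0119).

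Upstream, the interferon genes themselves were hardly detected. None of 20 listed interferon ligand genes reached the expression minimum, and 14 never left 0.001 RPKM, the smallest value the table lists. Ifnb1, which encodes interferon beta, was at 0.001, 0.078 and 0.320 RPKM in the control, or about 0, 2 and 8 reads, and at 0.034, 0.001 and 0.001 RPKM after knockdown, or about 1, 0 and 0 reads. Ifnz was at 0.073, 0.144 and 0.063 RPKM in the control and at 0.001, 0.035 and 0.039 RPKM after knockdown. Its groups did not overlap, which held for only 1 of the 20 ligand genes. Every siRNA value was below every control value in 35.9% of the genes tested, to which Ifnz does not belong. At these levels no ligand gene was tested, so a difference in ligand RNA was not assessed.

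The receptor chains and their kinases differed from the transcription factors below them. Ifnar1 rose from 21.8 ± 0.783 to 28.5 ± 1.36 RPKM (log2 fold change 0.37, SE 0.06, adjusted p = 0.00199 from limma). Ifnar2 was at 109 ± 9.16 and 110.4 ± 6.12 RPKM (adjusted p = 0.890), Tyk2 at 15.6 ± 0.722 and 16.9 ± 1.74 RPKM (0.347) and Jak1 at 63.3 ± 2.09 and 70.2 ± 2.59 RPKM (0.0727), none of them past the threshold in limma. Jak1 passed it as higher with median-ratio scaling (adjusted p = 0.00549), with quantile normalization (0.0326) and without control replicate 3 (0.0343), and Tyk2 with quantile normalization (0.0486). Stat2 and Irf9, both part of ISGF3, fell. Stat2 was at 77.4, 85.6 and 87.6 RPKM in the control and at 17.0, 19.0 and 18.8 RPKM in the siRNA libraries (log2 fold change -2.13, SE 0.07, adjusted p = 6.67e-07 from limma), and Irf9 fell from 35.5 ± 3.95 to 15.5 ± 1.15 RPKM (-1.14, SE 0.09, adjusted p = 4.81e-05).

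Of 7 interferon regulatory factors and brakes, 6 were called lower, where 29.8% of all genes tested were. Of these, 2 were lower by more than 2-fold on the log2(RPKM + 1) scale, where 5.63% of all genes tested were altered and lower. Irf7, the factor that amplifies the type I response, was at 296, 278 and 241 RPKM in the control and at 4.29, 12.3 and 6.85 RPKM in the siRNA libraries (log2 fold change -5.05, SE 0.28, adjusted p = 7.20e-06 from limma). In the siRNA group, replicate 1 was lowest and replicate 2 highest, as for Oas3, Oasl1, Oasl2, Stat2 and Mavs among others. Usp18, the protease that removes ISG15 and dampens the receptor, fell from 49.3 ± 3.93 to 1.57 ± 0.742 RPKM (-4.33, SE 0.19, adjusted p = 2.51e-06). Irf1, Irf5, Socs1 and Socs3 were called lower with log2 fold changes between -0.96 and -0.46, and in RPKM itself Socs1 (2.75) and Socs3 (2.06) also had a ratio of control to siRNA above 2. Irf3, the latent factor that acts before interferon is made, was at 19.9 ± 2.52 and 21.1 ± 1.41 RPKM and did not pass the test (log2 fold change 0.09, adjusted p = 0.512 from limma).

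In all, 25 of the 48 listed genes of the pathway and its inputs were tested. Of these, 18 were called lower, where 29.8% of all genes tested were, 1 was called higher, where 14.7% were, and 6 neither. A further count, of genes altered by more than 2-fold and lower, took 10 of the 25, where 5.63% of all genes were. Their median log2 fold change was -0.87 against -0.09 over all genes. The promoter windows of 15 of the 18 lower genes were in the table, and 5 held the motif shown for the Oas genes (Ddx58, Eif2ak2, Ifih1, Socs1 and Stat2). Of the 7 tested and not called lower, 0 held it, and at a share of 3.44% over all windows so few windows give no contrast.

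**Figure D3:**
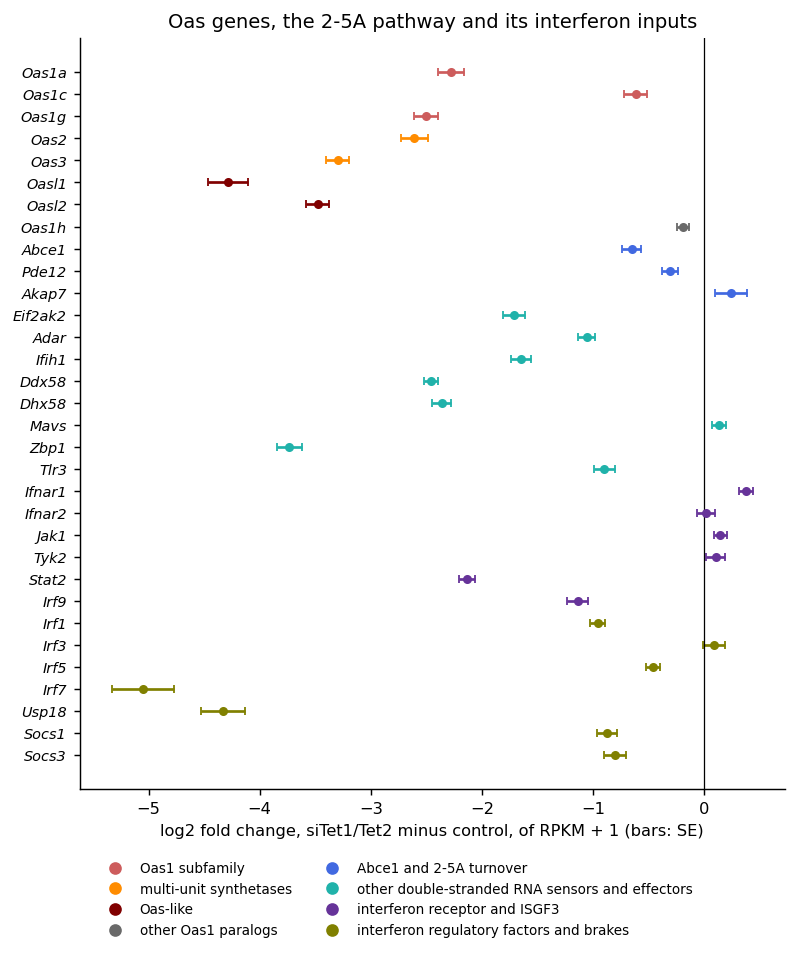
Log2 fold change of RPKM + 1 (siRNA minus control, n = 3 each, bars SE from limma) of the 7 Oas genes, Oas1h and the tested genes of the pathway, coloured by role. Irf7, Usp18, Oasl1, Zbp1 and Oasl2 lie furthest left, and Akap7, Mavs, Ifnar1, Ifnar2, Jak1, Tyk2 and Irf3 lie to the right of 0.

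The genes that lie among and beside the Oas genes had fold changes of both signs. Of 32 annotated protein-coding genes within 250 kb of an Oas gene, 4 of them Oas1 paralogs, 30 had a row and 20 were tested. With limma, 7 were called higher, where 14.7% of all genes tested were, 4 lower, where 29.8% were, and 9 neither. On the log2(RPKM + 1) scale 0 changed by more than 2-fold, whereas the RPKM ratio of control to siRNA was 5.58 for Cabp1 and 5.14 for Oas1h, both below 1 RPKM. Their log2 fold changes ran from -0.44 to 0.87 with a median of 0.05. 2210016L21Rik, which begins 4243 bases from Oasl1, was at 19.8 and 19.0 RPKM (log2 fold change -0.04, adjusted p = 0.823 from limma). Slc8b1, which encodes a mitochondrial sodium-calcium exchanger, rose from 20.9 to 38.9 RPKM (0.87, adjusted p = 1.98e-05), Trpv4, a cation channel, from 4.32 to 8.44 RPKM (0.82, adjusted p = 3.58e-04) and Tpcn1, an endolysosomal cation channel, from 16.4 to 26.8 RPKM (0.68, adjusted p = 7.12e-05). The other genes called higher were Gltp, Acads, Ankrd13a and Git2, with log2 fold changes from 0.26 to 0.62. The call of Acads was lost with no filter on low values (adjusted p = 0.0940) and that of Git2 with libraries rescaled to the same sum (0.0852). The genes called lower were Ptpn11 (-0.44), a phosphatase gene 223012 bases from Oas1a, Ddx54 (-0.30), Cabp1 (-0.23) and Oas1h (-0.19). The call of Cabp1 was lost in 5 of 15 alternatives, quantile normalization among them. Also among these 5 were the fits without control replicate 2 (adjusted p = 0.0734), without siRNA replicate 1 (0.0707) and without siRNA replicate 2 (0.0637). The call of Oas1h was lost as given above, so that 2 to 4 neighbours were called lower when 1 library was left out. The windows of 20 neighbours were in the promoter table and 0 held the motif, which 3.44% of all windows hold.

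**Figure D4:**
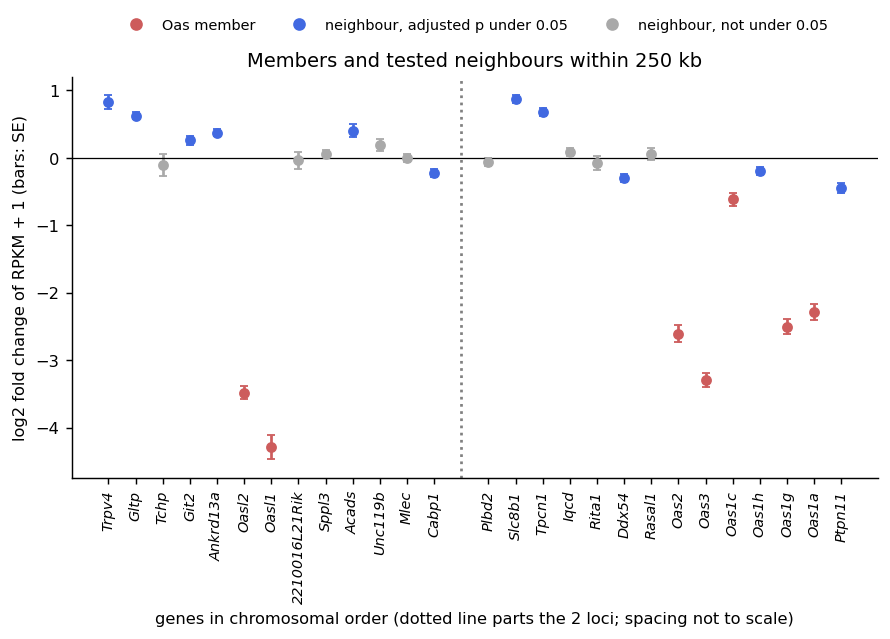
Log2 fold change of RPKM + 1 (siRNA minus control, n = 3 each, bars SE from limma) of the 7 Oas genes (red) and the 20 tested neighbours within 250 kb (blue with an adjusted p under 0.05, grey without), in chromosomal order. The red points lie between -4.29 and -0.62 and the neighbours between -0.44 and 0.87.

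The genes whose pattern over the 6 libraries was most like the mean pattern of the Oas genes were sought among all other tested genes. For each gene, log2(RPKM + 1) was centred on its own mean, and the root-mean-square difference was taken over the 6 libraries. The 5 nearest were Gbp6 (0.104), Ly6e (0.106), Gm12250 (0.118), H2-Q4 (0.126) and Phf11b (0.138). Gbp6, a guanylate-binding protein gene, was at 6.27, 7.01 and 7.59 RPKM in the control and at 0.129, 0.230 and 0.163 RPKM in the siRNA libraries. Ly6e, a membrane protein gene, was at 418, 402 and 351 RPKM in the control and at 61.7, 72.5 and 63.3 RPKM in the siRNA libraries. The order depends on the pseudocount. With 0.1, a setting chosen after seeing the data, only Gm12250 (place 2) was among the 5 nearest, with H2-Q4 at place 8, Phf11b at 9, Ly6e at 37 and Gbp6, whose RPKM ratio of control to siRNA was 40.0, at 798. Of the Oas genes themselves, Oas1g (0.156) was nearest to their mean pattern and Oas1c (1.06) farthest.

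Markers of cell types were set beside these results, since the labels give the cells as mesenchymal. Macrophage markers were abundant in every library, with 17 genes summing to 9022 to 12044 RPKM in the control and 17662 to 20817 RPKM in the siRNA libraries, and none stood at 0.001 RPKM. Without Lyz2, the most abundant of them, the sums were 5475 to 7030 and 7819 to 8282 RPKM. Of these 17, 9 were called higher (against 14.7% of all genes tested), 1 lower (Fcgr1, log2 fold change -1.93) and 7 neither, and the leukocyte gene Ptprc was at 52.6 and 53.0 RPKM. Stromal markers, 14 genes, summed to 1115 to 1619 RPKM in the control and 142 to 285 RPKM in the siRNA libraries, with 9 of the 11 tested called lower, where 29.8% of all genes were. In the control, Col1a1 (488 RPKM) and Col1a2 (437 RPKM) had the highest means of the list, while Lum, Thy1 and Lepr were at 0.146 RPKM or less in all 6 libraries. The 5 markers of plasmacytoid dendritic cells, which make much interferon, summed to 2.14 RPKM or less, with Siglech at 0.079 RPKM or less and Klk1 at 0.001 RPKM throughout. Cox6a2, the only 1 of them tested, held most of that sum. It was at 2.06, 1.32 and 1.59 RPKM in the control and at 1.02, 1.06 and 0.427 RPKM in the siRNA libraries. It was called lower, where 29.8% of all genes tested were (log2 fold change -0.54, adjusted p = 0.0245 from limma). The 7 lymphocyte markers summed to 1.36 RPKM or less and the 4 endothelial markers to 2.88 RPKM or less. Of the lymphocyte markers only Cd79b was tested, and it was called higher, where 14.7% of all genes tested were. Of the 4 endothelial markers, all tested, Kdr and Emcn were called lower, where 29.8% were, Pecam1 higher and Cdh5 neither. The shift in macrophage and stromal markers moved with the same contrast as the Oas genes, and its part in their fall was not tested.

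**Figure D5:**
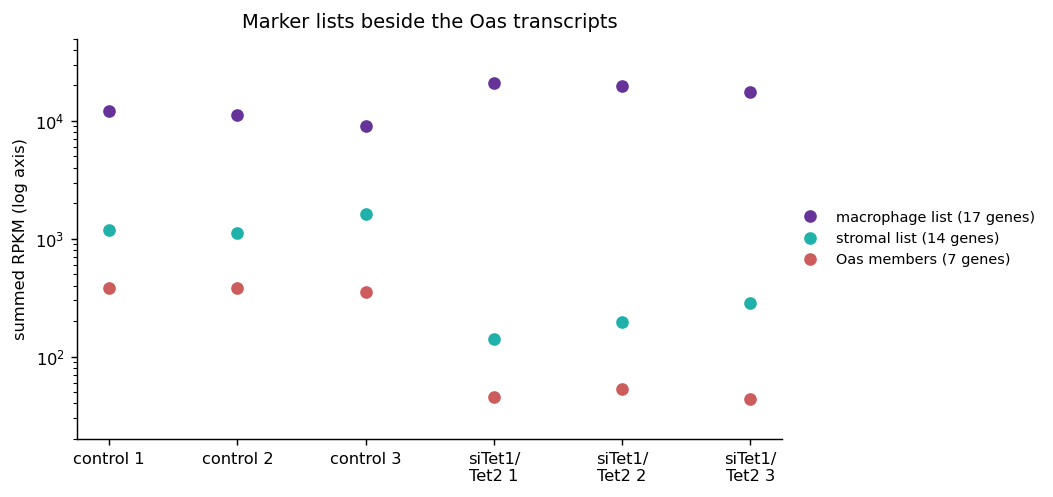
Summed RPKM on a log axis of the 17 macrophage markers, the 14 stromal markers and the 7 Oas genes in each of the 6 libraries. The macrophage sum is higher, and the stromal and Oas sums lower, in each siRNA library than in each control library.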

How the data were processed

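The authors aligned paired-end reads of total RNA to GRCm38, quantified genes in DNASTAR Lasergene, and the deposited table holds linear RPKM values (FPKM in the methods) of 6 libraries. Annotation, strand and the treatment of multiply matching reads are not given in the sources used here. Its column of p-values is the authors' own comparison and was not used. Where rows shared a symbol (37 symbols), the one of highest mean was taken. The 13266 genes that averaged 0.1 RPKM or more were compared on log2(RPKM + 1) with limma 3.58.1 in R 4.3.3 (lmFit, eBayes with trend, two-sided), with Benjamini-Hochberg adjustment over all of them. The fit was tested on simulated data. An exact permutation test of 3 libraries against 3 has a smallest p of 0.1. Promoters, neighbours and shared 100-base stretches were computed in Python 3.11.15 (numpy 2.4.6, pandas 2.3.3) with GENCODE M21 and RefSeq.

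The members and lists were chosen with earlier results of these data known. Named were the Oas genes, the tested genes of the 2-5A turnover, Oas1 paralog and receptor lists, genes of the other roles past both thresholds, neighbours past the adjusted one, Tet1, Tet2 and the 5 genes most alike. Further genes (2210016L21Rik, Mavs, Tlr3, Irf1, Irf3, Irf5, Socs1, Socs3, Ifnb1, Ifnz and the markers) were named after their values were seen. Some genes of the pathway are not reported here and are left out of its counts. P2rx7, the gene the study follows, was at 31.6 and 7.18 RPKM (log2 fold change -2.00). Depth, which the table does not give, was estimated from the steps of low values in genes with 1 transcript. At the depth taken, 53.1% to 57.1% of these values lay within 0.1 of a whole read. The median over the depths tried was 14.6% to 16.1%. Depth came to 32400000 to 38500000 reads per library. Reads of a gene were computed with its longest GENCODE M21 transcript, and the length the authors used is not known. Depth and reads are estimates, so no count test was run. The replicate numbers are shared between groups, and deviations of same-numbered libraries correlated with r of 0.149, 0.117 and 0.462 across genes. A fit with the number as a block was therefore added, on these values alone, although control replicate 1 correlated with siRNA replicate 2 at 0.332. Alternative settings comprised other pseudocounts, filters, scalings and variance settings, the replicate block, summed rows and each library left out.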

Additional observations from a re-analysis of the deposited data

How the results depend on the processing

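The Oas genes called lower (7) and those altered and lower (6) were the same in number under all 16 alternatives, and their fold changes kept their sign, from -6.06 to -4.08 for Oasl1 and from -0.76 to -0.45 for Oas1c. Treating the replicate numbers as pairs (replicate block) called 6716 of all genes instead of 5905 and changed no call among the Oas and pathway genes or the neighbours named as called. It was not examined for the genes most alike and the markers. Pseudocounts of 0.1 and 0.01 raised the genes altered and lower from 747 to 1438 and 1590. Without a filter, where 36870 genes are tested, 3744 were called and 2514 of them lower, instead of 3952 lower. Scaling moved the balance of calls, with 3952 of 5905 lower as deposited, 2960 of 5815 with median-ratio scaling, 2627 of 6234 with quantile normalization and 4376 of 5901 with equal sums, and the cause was not tested. The median of all genes moved from -0.09 to 0.00 and 0.06 with these scalings and to -0.16 with equal sums. The equal sum lay above the deposited sums of 393567 to 440433 RPKM, so the pseudocount of 1 also weighed less in that setting. Leaving out 1 library gave 4419 to 6163 genes called, 3016 to 4142 lower and 689 to 829 altered and lower. Neighbours called lower numbered 2 with a mean of at least 1 RPKM, where Oas1h and Cabp1 are not tested, 2 with quantile normalization, and 2 to 4 with 1 library left out, 2 without siRNA replicate 1 and 2 without siRNA replicate 2. The signs of genes that passed no test turned for Ifnar2, to -0.0480 with equal sums and between -0.0483 (without control replicate 3) and 0.0718 with 1 library left out, including -0.0191 without siRNA replicate 2, and for Irf3, between -0.0183 (without control replicate 3) and 0.1457. Values of the Oas genes counted as kept if they moved by less than the gene's residual spread. Values of the other named genes counted as kept if sign and call were unchanged, whatever the size of the change. Oas1h thus counted as kept at -2.45 with a pseudocount of 0.01, against -0.19. Of 702 values of named genes under alternatives, 664 were kept in this sense and 14, all of Oas genes, moved by more than the spread. A further 13 lost their call, 7 gained one and 4 turned. Depth limits Tet1, the interferon genes and the Oas1 paralogs, and a deposited 0.001 stands for no reads.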
